A study of Mus musculus with 6 samples.

Results

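Integrins are cell-surface adhesion receptors built from 1 alpha and 1 beta subunit, and each subunit is encoded by its own gene. This account covers 10 integrin subunit genes of leukocytes, chosen by name: Itga4, Itgal, Itgam, Itgax, Itgav, Itgb1, Itgb2, Itgb3, Itgb7 and Itgb8. They are 10 of the 32903 gene symbols that the deposited transcript table could be summed to, and 8 of them reached the expression limit of a mean of 0.5 TPM over the libraries compared (12520 genes did so in all). TPM is a transcript's abundance, per length, relative to a fixed library total.

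The study sequenced polyadenylated RNA of MuTuDC1940 cells that were left untreated (3 samples) or given poly(I:C), a synthetic analogue of viral double-stranded RNA, at 5 µg/ml for 18 hours (3 samples). MuTuDC1940 is an immortalised mouse dendritic cell line, derived from mice in which the promoter of Itgax (CD11c) drives a viral oncogene, so it is a proliferating line and not a primary cell. The labels do not say whether each sample was its own culture, so a p-value here reflects how much these libraries vary, and that variation may be technical. Because the header of the table leaves the group of 2 columns open, 2 untreated libraries (headed NT01 and NT02) were compared with 2 treated ones (PolyIC01 and PolyIC02), and means are given ± SD with n = 2 throughout. In bulk RNA, fewer cells expressing a gene and less RNA per cell cannot be told apart.

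Integrin heterodimers let dendritic cells hold on to other cells and to matrix, and their use depends on which alpha and beta chains meet. The beta-2 chain (Itgb2, CD18) pairs with alpha-L to form LFA-1, the receptor for ICAM-1 on T cells and endothelium, with alpha-M to form Mac-1 and with alpha-X to form CD11c/CD18, both receptors for complement fragments. The alpha-4 chain pairs with beta-1 to form VLA-4, which binds VCAM-1 and fibronectin, or with beta-7 to form the gut-homing receptor for MAdCAM-1. Beta-7 also pairs with alpha-E (CD103), which binds E-cadherin. The alpha-V chain pairs with beta-1, beta-3, beta-5, beta-6 or beta-8, and alpha-V/beta-8 releases active TGF-beta from its latent complex.

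The labelled cell type was checked against marker genes. All 10 markers listed for type 1 conventional dendritic cells (cDC1) were tested, and their summed level was 4067 to 4120 TPM in the untreated and 3953 to 4029 TPM in the treated libraries. More than any other gene, Irf8 carried that sum, at 2477 to 2639 TPM. Among the 10, 4 rose, 4 fell and 2 did not pass. Xcr1 rose from a mean of 192 to 331 TPM, and Cd24a fell from 382 to 142 TPM, the only one of them to fall at least 2-fold. Alpha-E, which is in that list and marks cDC1 of many tissues, was low at 0.490 to 0.918 TPM. The T cell markers Cd3e and Cd3g, the NK cell marker Ncr1 and the neutrophil markers S100a8, S100a9 and Ly6g were listed at 0 in all 4 libraries. Other markers of these lists were present at low levels. The summed T cell markers were at 1.03 to 1.36 TPM untreated and 1.85 to 1.92 TPM treated, and 1 rose of 1 tested. The B cell markers summed to 3.49 to 3.92 TPM untreated and 5.96 to 7.10 TPM treated, and 1 rose of 1 tested. For the NK cell markers the sums were 3.87 to 4.58 TPM and 1.00 to 1.52 TPM, and 1 fell of 1 tested, while none of the 6 neutrophil markers reached the limit. The megakaryocyte and platelet markers summed to 26.0 to 28.7 TPM untreated and 19.5 to 20.4 TPM treated. Of 4 tested, 1 rose and 2 fell, beside 28.4% and 32.4% of all tested genes. The one that rose was Itga2b, at 13.7 and 12.5 TPM untreated and 16.5 and 16.0 TPM treated. It is itself an integrin alpha subunit gene and is counted again among the other subunits below. Pf4 fell from a mean of 10.9 to 2.52 TPM and Ppbp from 2.34 to 0.115 TPM. The fibroblast and epithelial markers summed to 10.5 to 11.7 TPM untreated and 7.90 to 7.99 TPM treated, and 2 fell of 2 tested. Ppbp of the first list and Cdh1 of the second, both among the fallen, reached the limit only through the untreated libraries. The part of these markers in the integrin results was not tested. Of 14 macrophage and monocyte markers 11 were tested, 9 rose and 1 fell, against 28.4% and 32.4% of all tested genes. Fcgr1 and C5ar1, 2 of the 9, reached the limit only through the treated libraries. The summed level of the 14 was 334 to 340 TPM in the untreated and 652 to 669 TPM in the treated libraries. Of the defining markers among them, Adgre1 (F4/80) was at 0.871 to 1.70 TPM, Csf1r was listed at 0 in both treated libraries, and Lyz2 was the one that fell, from 218 and 217 TPM to 98.9 and 107 TPM.

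Most of these integrin genes had less RNA in the poly(I:C) libraries, and by far the largest fall among them was that of Itgb7. The level of Itgb7 fell to 16.7% of the untreated mean, while Itgam, Itgax and Itgal fell to between 52.6% and 60.8% of it and Itgb2 to 82.3%. Itga4, Itgb1 and Itgav stayed within 10% of their untreated means. Itgb3 and Itgb8 were near 0 in all libraries. Of the 8 members tested in limma at an adjusted p under 0.05, 6 fell, none rose and 2 did not pass; 32.4% of all tested genes fell and 28.4% rose. None rose at an unadjusted p under 0.05 either. The median log2 fold change of the 8 was -0.49, against -0.02 over all tested genes. Only Itgb7 fell at least 2-fold, which 2.76% of all tested genes did, and none rose by as much, against 5.69% of all tested genes. For 7 of the 8 both treated libraries lay below both untreated ones, as they did for 42.4% of all tested genes. With 2 libraries against 2, an exact permutation test on a single value cannot go below p = 0.333 (two-sided), so none is given.

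**Figure D1:**
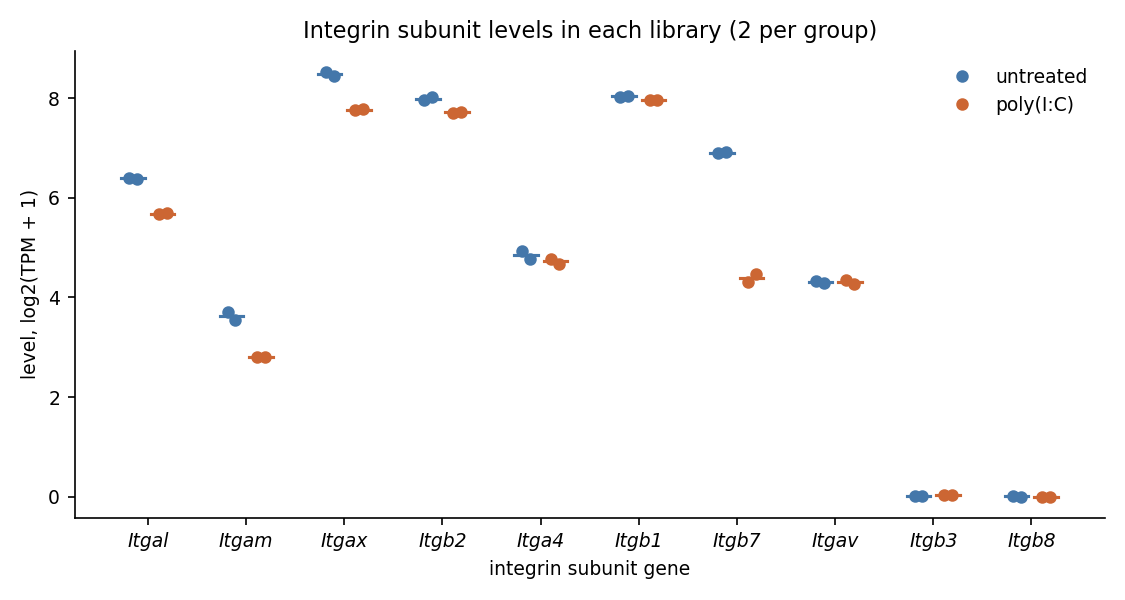
Level of each integrin subunit gene on the log2(TPM + 1) scale (y axis) in every library (points: untreated in blue, poly(I:C) in orange; lines: group means of 2 libraries). The gap between the colours is widest for Itgb7, the colours overlap for Itgav, and Itgb3 and Itgb8 lie at about 0 in all libraries.

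Itgb7 lies at chr15:102215994-102233405 and Itga4 at chr2:79255426-79333114. The genes of the beta-2 partners all lie on chromosome 7, with Itgal at chr7:127296139-127335137 and the neighbours Itgam at chr7:128062640-128118491 and Itgax at chr7:128129526-128150657, 11035 bases apart. Itgb2 is at chr10:77530329-77565708, Itgb1 at chr8:128685654-128733579 and Itgav at chr2:83722303-83806917 (RefSeq annotation of GRCm38.p6, the authors' build being GRCm38 per the submitters' processing notes). RefSeq promoter windows matched 7 of the 10 members. Itgal, Itgb2 and Itgb3 had no window, so the motif search below does not cover them. The windows of Itgb7 and of its partner Itga4 are shown because the genes encode chains of 1 receptor and, of the pair, only Itgb7 fell, and those of Itgam and Itgax because these neighbours fell together. Each holds 240 bases, from 250 to 11 bases upstream of the RefSeq transcript start, written 5′ to 3′ on the gene's strand, with any motif found in capitals. The window of Itgb7 is chr15:102231946-102232185 (minus strand), that of Itga4 chr2:79255176-79255415, that of Itgam chr7:128062390-128062629 and that of Itgax chr7:128129300-128129539 (plus strand). The window of Itgb7 lies inside the annotated span of the gene, which reaches further upstream than the start used, and that of Itgax runs into its gene's span with its last bases.
Itgb7: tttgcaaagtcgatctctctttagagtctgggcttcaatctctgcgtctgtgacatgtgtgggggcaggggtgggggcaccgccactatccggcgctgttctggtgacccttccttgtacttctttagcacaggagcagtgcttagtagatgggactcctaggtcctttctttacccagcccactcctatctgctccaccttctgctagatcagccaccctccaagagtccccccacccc
Itga4: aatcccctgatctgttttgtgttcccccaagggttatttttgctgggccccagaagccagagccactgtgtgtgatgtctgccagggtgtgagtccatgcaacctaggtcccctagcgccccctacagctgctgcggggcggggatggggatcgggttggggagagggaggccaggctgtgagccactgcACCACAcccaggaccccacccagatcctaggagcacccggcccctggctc
Itgam: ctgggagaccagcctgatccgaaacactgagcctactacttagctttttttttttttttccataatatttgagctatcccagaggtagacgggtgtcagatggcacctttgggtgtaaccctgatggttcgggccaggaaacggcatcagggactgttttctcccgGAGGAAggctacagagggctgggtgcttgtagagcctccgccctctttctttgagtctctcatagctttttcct
Itgax: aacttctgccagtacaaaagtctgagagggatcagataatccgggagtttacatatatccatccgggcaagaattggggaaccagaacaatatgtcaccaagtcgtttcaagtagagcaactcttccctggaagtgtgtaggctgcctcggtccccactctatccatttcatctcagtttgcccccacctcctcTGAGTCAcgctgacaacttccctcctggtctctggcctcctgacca

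The windows of the 7 members were searched on both strands for 6 motifs, in which N stands for any base and no match overlapped another in these members. The PU.1 core GAGGAA was found in the window of Itgam and in that of Itgav, and 22.3% of all 32851 RefSeq windows of the same length hold it. The window of Itgav (chr2:83724147-83724386, plus strand), like that of Itgb7, lies inside the annotated span of its gene. The AP-1 motif TGANTCA was found as TGAGTCA in that of Itgax (6.58% of all windows). The RUNX core TGTGGT lay on the opposite strand in that of Itga4 (13.6%). The interferon-stimulated response element (2.87%), the STAT motif TTCNNNGAA (6.77%) and the NF-kB motif (1.30%) were found in none of the 7 windows. The window of Itgb7 held none of the 6. A match describes letters in a short window and is not shown to be a bound site, and a missing match says only that these letters are not there.

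Itgb7 encodes the beta chain of the gut-homing integrin alpha-4/beta-7. Untreated cells held 119 TPM (NT01) and 120 TPM (NT02) of it, and treated cells 18.8 TPM (PolyIC01) and 21.1 TPM (PolyIC02). The groups were far apart, with each untreated value several-fold above each treated one. The mean fell from 119 ± 0.390 to 20.0 ± 1.62 TPM, 5.97-fold lower. On the log2 scale this was -2.52 with a 95% interval of -2.67 to -2.38 (SE 0.059, limma adjusted p = 2.93e-06). It was the 5th deepest fall on this scale among the 12520 genes tested. The gene has 3 RefSeq transcripts in the table, and all 3 were lower in both treated libraries. The curated transcript was at 101 and 103 TPM untreated and 15.6 and 18.0 TPM treated. It held 83.0% to 86.1% of the gene's TPM in each library, so the division between transcripts hardly differed between the groups.

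Neither of the 2 known alpha partners of beta-7 passed the test. Itga4, which encodes alpha-4, measured 29.5 and 26.5 TPM in untreated cells, 26.5 and 24.5 TPM in treated ones. Its lower untreated and higher treated values were the same to 3 digits. The means were 28.0 ± 2.13 TPM (untreated) and 25.5 ± 1.43 TPM (treated), and the log2 fold change of -0.13 (95% interval -0.31 to 0.05) did not pass the test (adjusted p = 0.164 in limma). Without NT02 Itga4 passed as lower (log2 fold change -0.21, adjusted p = 0.0413; range over all alternatives 0.0413 to 0.537). The 3′ end of Itga4 overlaps that of Cerkl, a gene at 0.308 to 0.690 TPM in these libraries, and the sources used here do not give strand use in the authors' quantification. Itgae, which encodes alpha-E, ranged from 0.490 to 0.918 TPM without poly(I:C) and stood at 0.597 and 0.589 TPM with it, overlapping groups whose difference of -0.09 on the log2 scale did not pass (limma adjusted p = 0.630).

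Itgb1 encodes beta-1, the most widely shared beta chain. It stood at 261 and 262 TPM without poly(I:C), against 250.4 and 248 TPM with it. The values were tightly grouped and did not overlap, with a treated mean at 95.3% of the untreated one. The log2 fold change of -0.07 (SE 0.024, 95% interval -0.13 to -0.01) passed narrowly in limma (adjusted p = 0.0488), and the call was lost under 8 of 11 alternative settings, among them leaving out any one library (adjusted p 0.139 to 0.198) and rescaling the libraries (adjusted p = 0.319).

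The RNA balance between the genes of the beta chains that can pair with alpha-4 differed between the groups. Beta-1 also pairs with other alpha chains, and the chains and receptors themselves were not measured here. Itgb7 made up 31.3% of the summed Itgb1 and Itgb7 TPM in both untreated libraries, and 6.99% and 7.83% in the treated ones. Per unit of Itga4, Itgb7 stood at 4.04 and 4.52 in the untreated and at 0.711 and 0.863 in the treated libraries. The ratio of Itgb1 to Itga4 was 8.86 and 9.90 without and 9.46 and 10.2 with poly(I:C), so these values overlapped.

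The gene of the beta-2 chain and those of its 3 expressed alpha partners all fell. Itgax, which encodes the dendritic cell marker CD11c, had the highest level of the 10 without treatment. Its levels were 369 TPM (NT01), 348 TPM (NT02), 216 TPM (PolyIC01) and 220.0 TPM (PolyIC02). Both treated values lay well below both untreated ones, and the means were 358 ± 14.5 TPM untreated and 218 ± 2.75 TPM treated (-0.71 on the log2 scale, SE 0.035, limma adjusted p = 3.10e-05).

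Itgal encodes alpha-L of LFA-1, used in adhesion between dendritic cells and T cells. Its untreated levels were 84.0 and 82.0 TPM and its treated ones 50.1 and 50.9 TPM. The groups did not overlap, and the spread within each was small next to the gap. Its mean of 83.0 ± 1.41 TPM dropped to 50.5 ± 0.555 TPM (-0.71 on the log2 scale, SE 0.034, limma adjusted p = 2.89e-05).

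Itgam encodes alpha-M (CD11b), which is high on macrophages, neutrophils and other dendritic cell subsets and low on cDC1. The untreated libraries held 11.99 and 10.8 TPM of it, the treated ones 6.01 and 5.96 TPM. The treated values were again below the untreated ones. On average 11.4 ± 0.868 TPM became 5.99 ± 0.0375 TPM (-0.82 on the log2 scale, SE 0.077, limma adjusted p = 0.000351). It fell while the macrophage and monocyte markers given above summed to a higher level in the treated libraries, and the part of that list in this result was not tested.

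Itgb2 measured 249 and 260.3 TPM without poly(I:C) and 208 and 210.4 TPM with it, again without overlap. Its fall was shallower than those of its partners in the means, 254 ± 8.20 TPM untreated and 209 ± 1.51 TPM treated (-0.28 on the log2 scale, SE 0.031, limma adjusted p = 0.000713). Summed over Itgal, Itgam, Itgax and Itgad, the alpha partners stood at 1.87 and 1.69 TPM per TPM of Itgb2 in the untreated and at 1.31 and 1.32 in the treated libraries. The 95% limma interval of Itgb2 (-0.36 to -0.20) does not reach those of Itgal (-0.79 to -0.62), Itgax (-0.80 to -0.63) and Itgam (-1.01 to -0.63); the difference itself was not tested.

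Among the partners themselves the proportions of Itgax and Itgal hardly moved, while the small share of Itgam was lower in the treated libraries. Itgax held 79.3% and 78.9% of the summed alpha partners of beta-2 in the untreated and 79.3% and 79.4% in the treated libraries, and Itgal held 18.1% to 18.6% in all 4. The ratio of Itgax to Itgal was 4.39 and 4.25 without and 4.32 and 4.33 with poly(I:C), so the treated ratios lay between the untreated ones. Itgam held 2.58% and 2.44% in the untreated and 2.21% and 2.15% in the treated libraries. Itgad, the fourth partner, was under the expression limit at 0.103 to 0.288 TPM.

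**Figure D2:**
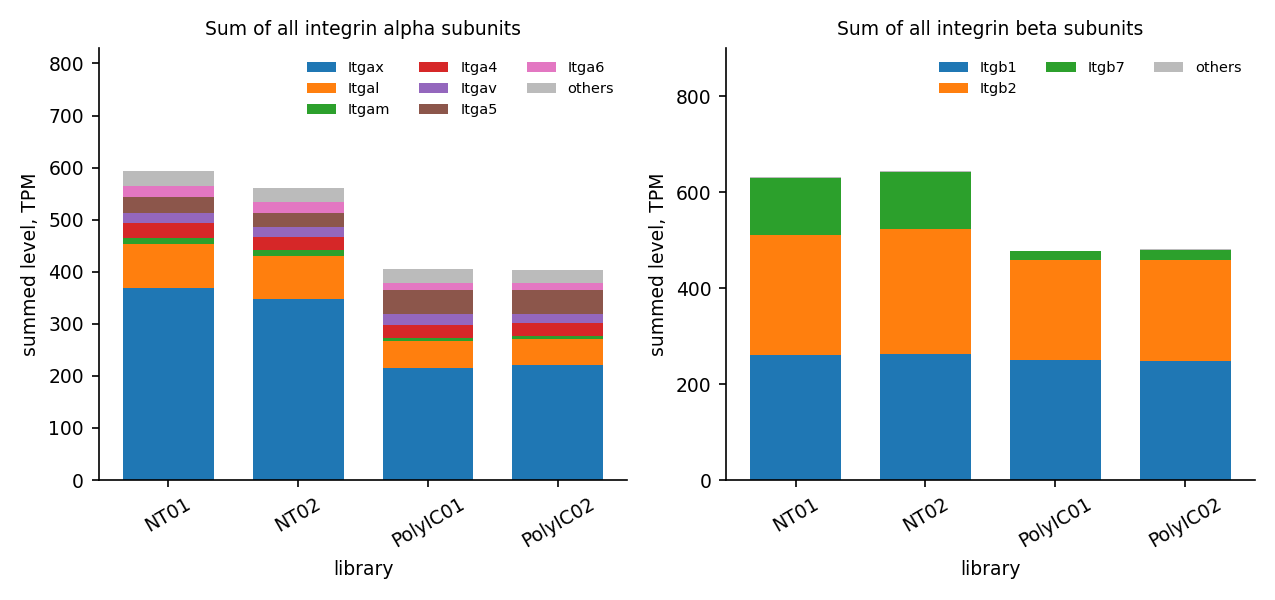
Summed level in TPM (y axis) of all 18 integrin alpha genes (left) and all 9 beta genes (right) in each library (x axis), with the contribution of the main genes in colour and of all others in grey. The treated bars are lower in both panels, and in the right panel the green segment of Itgb7 shrinks while that of Itgb1 keeps nearly the same height.

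Over all 18 alpha subunit genes the summed level was 593 and 560.0 TPM without poly(I:C), against 405 and 404 TPM with it. The 9 beta subunit genes summed to 631 and 644 TPM without it, against 478 and 481 TPM. Most of both sums came from few genes. Itgax alone held 62.2% of the alpha sum in both untreated libraries and 53.3% and 54.4% in the treated ones. In the beta sum the share of Itgb1 was 41.4% and 40.7% in the untreated and 52.3% and 51.6% in the treated libraries.

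At the level of single transcripts, all 5 of Itgal, both of Itgam and both of Itgax were lower in both treated libraries than in both untreated ones. The curated transcript of Itgax carried 91.8% to 94.5% of the gene. The split within Itgam was unstable, with 1 of its 2 curated transcripts holding 34.7% and 53.4% of the gene in the untreated and 40.5% and 22.3% in the treated libraries, although the gene's sum varied little within a group. For Itgb2 the transcripts did not share a direction. Its curated transcript, at 177 and 184 TPM untreated, was at 129 and 142 TPM with treatment, while a minor predicted one was higher in both treated libraries (6.13 and 5.15 TPM) than in the untreated ones (3.20 and 3.81 TPM). Another predicted transcript overlapped between the groups, at 21.3 and 32.5 TPM without and 38.9 and 31.4 TPM with poly(I:C). Counting curated transcripts alone, the log2 fold change of Itgb2 was -0.42. How TPM divides between overlapping transcripts of a gene is an estimate and is less certain than the gene's sum.

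**Figure D3:**
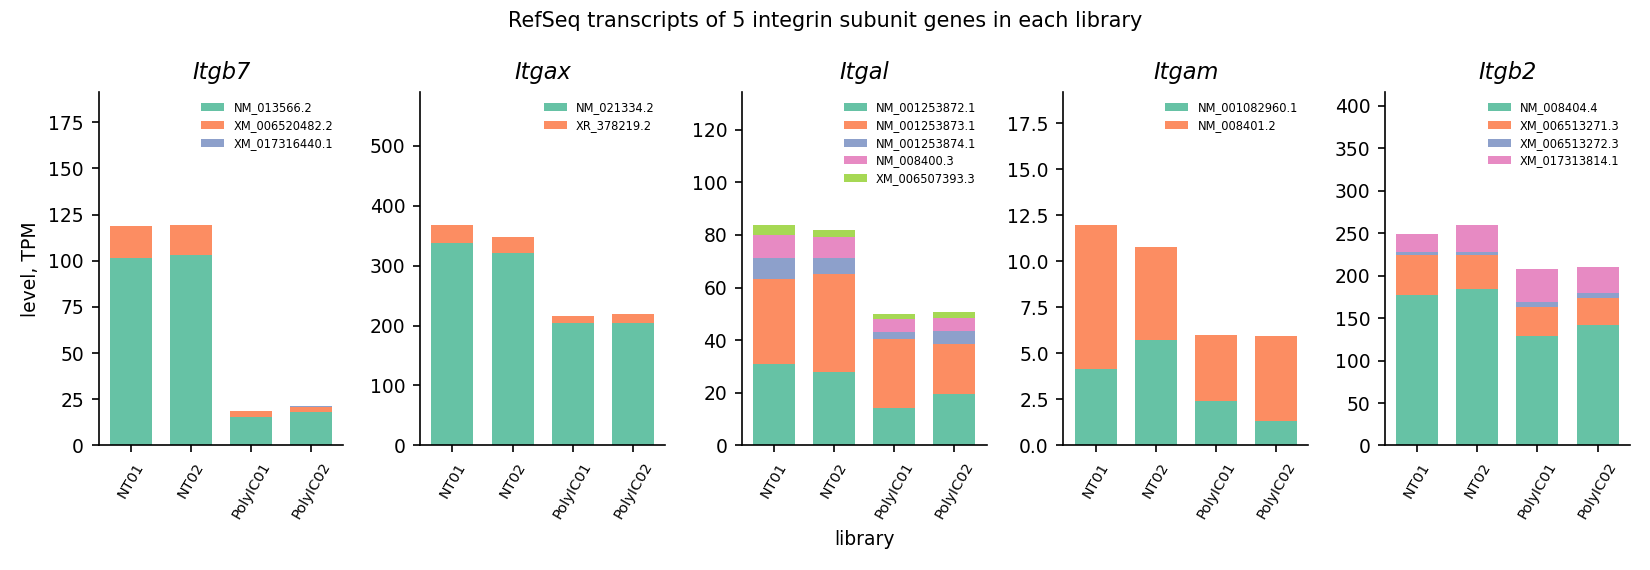
Level in TPM (y axis, a separate scale per gene) of each RefSeq transcript (colours) of Itgb7, Itgax, Itgal, Itgam and Itgb2, stacked, in each library (x axis). For Itgb7 and Itgax 1 curated transcript makes up most of every bar, while the 2 segments of Itgam change in proportion between libraries of the same group.

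The members of alpha-V integrins other than Itgb1 gave no call. Itgav, which encodes alpha-V, measured 19.2 and 18.4 TPM without poly(I:C), 19.4 and 18.4 TPM with it, and the groups overlapped. Its log2 fold change of 0.01 (95% interval -0.13 to 0.15) did not pass in limma (adjusted p = 0.930). Itgb3 and Itgb8, which encode partners of alpha-V, were near 0. Itgb3, the beta chain of the vitronectin receptor and of the platelet fibrinogen receptor, was at 0.0102 and 0.0133 TPM without and 0.0216 and 0.0207 TPM with poly(I:C). Itgb8, which anchors the release of active TGF-beta, was at 0.00979 TPM in NT01 and listed at 0 in the other libraries. Both lay far under the expression limit, and no fold change is given for them. Of the remaining partners of alpha-V, Itgb5 was at 1.39 and 1.59 TPM without and 0.787 and 0.994 TPM with poly(I:C), and Itgb6 was at 0.00692 to 0.0544 TPM. Itgb5 fell (log2 fold change -0.40, adjusted p = 0.0210 in limma), but not when NT02 (adjusted p = 0.0700) or PolyIC01 (adjusted p = 0.122) was left out, and its alternatives ranged from 0.0165 to 0.122. Among the partners named above, Itgb1 was thus the beta chain at a high level in both groups.

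In untreated cells the order of mean levels was Itgax, Itgb1, Itgb2, Itgb7, Itgal, Itga4, Itgav, Itgam, Itgb3 and Itgb8, and no range of 2 libraries overlapped that of the next gene in the order. With poly(I:C) the order was Itgb1, Itgax, Itgb2, Itgal, Itga4, Itgb7, Itgav, Itgam, Itgb3 and Itgb8. The ranges of Itgb7 and Itgav overlapped there, and those of no other neighbours did. Itgb7 thus went from the 4th to the 6th place, level with Itgav. The tested genes nearest to Itgb7 in log2(TPM + 1) over the 4 libraries (Euclidean distance) were Tpcn1 (distance 0.605), Khk (0.621) and Naa10 (1.05). Among those nearest to Itgav, the member with the highest log2 fold change, were Casp8ap2 (0.010) and Epc2 (0.036).

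Of the other 17 integrin subunit genes, 8 were under the expression limit, and those that passed the test moved in both directions. Among the 9 that were tested, 5 fell and 2 rose, 2 did not pass, and the median log2 fold change was -0.31. Over all tested genes 32.4% fell, 28.4% rose and the median was -0.02. The largest rise was that of Itga5, which encodes the alpha chain of the fibronectin receptor alpha-5/beta-1. Untreated libraries held 29.6 and 26.5 TPM of it, treated ones 47.0 and 45.3 TPM (0.70 on the log2 scale, SE 0.062, limma adjusted p = 0.000285). The ratio of Itga5 to Itga4 was 1.00 in both untreated libraries and 1.77 and 1.85 in the treated ones. Itga6, an alpha chain of laminin receptors, fell from 21.6 and 21.5 TPM to 13.3 and 13.1 TPM (log2 fold change -0.66). Itga1, of a collagen receptor, fell from 2.79 and 2.97 TPM to 1.07 and 1.20 TPM (-0.86). Both encode partners of beta-1.

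**Figure D4:**
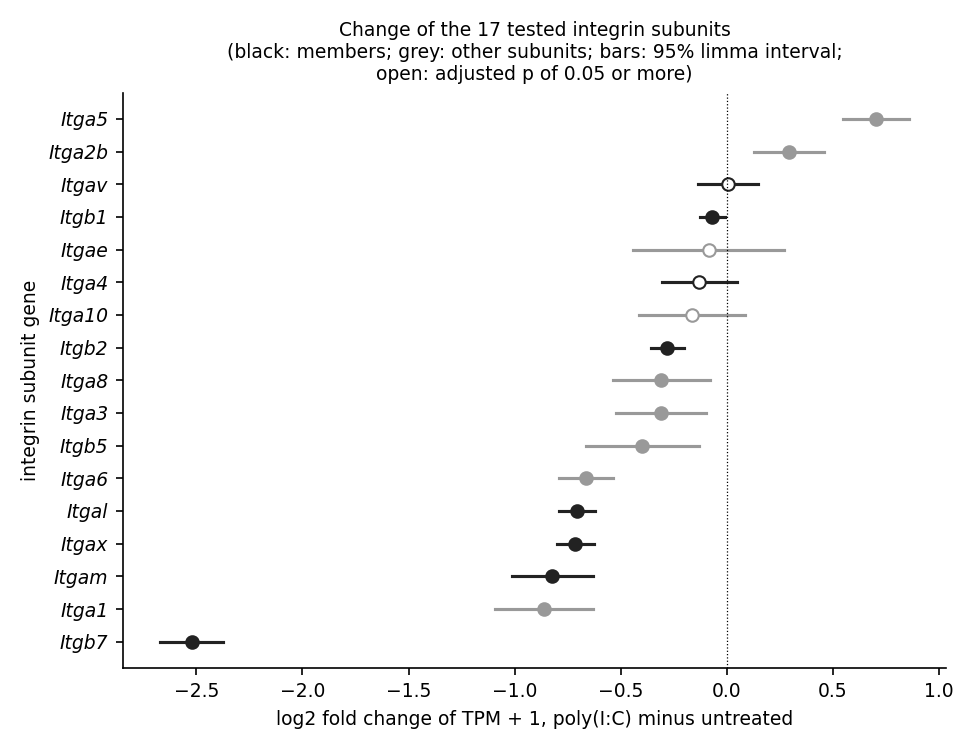
Log2 fold change of TPM + 1 (x axis) of the 17 integrin subunit genes tested (y axis), with 95% limma intervals, for the leukocyte integrins described here (black) and the other subunits (grey); filled points passed the test. Itgb7 stands at -2.52, the alpha partners of beta-2 between -0.82 and -0.71, and Itga5 at 0.70.

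Genes of integrin ligands changed in both directions. Of 28 listed, 14 were tested: 6 rose, 5 fell and the others did not pass (median log2 fold change 0.26). These counts, and those of the lists that follow, stand beside 28.4% of all tested genes that rose and 32.4% that fell. Icam1, the ligand of LFA-1 and Mac-1, rose from 157 TPM in both untreated libraries to 388 and 401 TPM (1.32 on the log2 scale, SE 0.028, limma adjusted p = 2.29e-06). With Itgal lower, the ratio of Icam1 to Itgal went from 1.87 and 1.92 to 7.75 and 7.89. C3, the source of the complement fragments bound by Mac-1 and CD11c/CD18, rose from 0.181 and 0.176 TPM to 5.59 and 5.36 TPM (2.46). Vcam1, the ligand of alpha-4/beta-1, was at 0.0621 and 0.0925 TPM without and 1.28 and 1.02 TPM with poly(I:C) (0.99, adjusted p = 0.000611). C3 and Vcam1 reached the expression limit only through the treated libraries, which favours a rise. Cdh1, which encodes E-cadherin and was 1 of the 5 that fell, reached it only through the untreated libraries, which favours a fall. Its levels were 1.20 and 1.27 TPM without and 0.367 and 0.408 TPM with poly(I:C). Vcam1 was under the limit when either treated library was left out, and its log2 fold change was 2.82 with a pseudocount of 0.1 and 0.28 with one of 5. That of C3 also depended on the pseudocount, at 4.32 with 0.1 and 1.02 with 5. Spp1, which encodes osteopontin, a ligand of alpha-V and alpha-4 integrins, fell from 10.2 and 10.1 TPM to 4.79 and 4.88 TPM (-0.93), and Icam2, another LFA-1 ligand, fell from 2.69 and 2.66 TPM to 1.24 and 1.21 TPM (-0.73). Fibronectin (Fn1) was listed at 0 in all 4 libraries, and Madcam1, the ligand of alpha-4/beta-7, did not exceed 0.0245 TPM.

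Genes that switch integrins on from inside the cell also moved in both directions. The 22 that were tested split into 10 that rose, 9 that fell and 3 that did not pass (median log2 fold change -0.06). One of the 10, Rap1gap, reached the expression limit only through the treated libraries. Talin (Tln1), which binds beta chain tails to activate them, was at 236 and 226 TPM without and 229 and 223 TPM with poly(I:C) (-0.03, adjusted p = 0.430). Kindlin-3 (Fermt3), its partner in leukocytes, rose from 108 and 106 TPM to 114 and 118 TPM (0.12, adjusted p = 0.0223), but the call did not hold without NT02 (adjusted p = 0.0796), without PolyIC02 (adjusted p = 0.126) and without trend and robust moderation (adjusted p = 0.0813), with a range of 0.0190 to 0.126. The small GTPase gene Rap1b, a central switch of integrin activation, rose from 292 and 296 TPM to 497 and 477 TPM (0.73). Rasgrp2, which encodes an exchange factor for Rap1, fell from 1.75 and 1.80 TPM to 0.560 and 0.583 TPM (-0.82). Cytip, whose product binds cytohesin-1 and restrains adhesion through LFA-1, rose from 42.6 and 47.3 TPM to 80.8 and 76.0 TPM (0.79). Fyb, which encodes an adaptor in adhesion signalling, rose from 4.77 and 4.63 TPM to 9.10 and 8.53 TPM (0.78).

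Of 28 tested genes of adhesion sites and signalling downstream of integrins, 11 rose, 13 fell and 4 did not pass (median log2 fold change -0.13). Src, among those 11, reached the limit only through the treated libraries. The Src family kinase gene Fgr rose from 3.82 and 3.92 TPM to 10.8 and 10.3 TPM (1.25), Cd47, a partner of beta-3 integrins and a signal against engulfment, from 67.3 and 67.2 TPM to 152 and 153 TPM (1.17). So did the adaptor gene Dok1, at 37.3 and 36.3 TPM untreated and 74.4 and 72.8 TPM treated (0.98). Parvg, the haematopoietic member of the parvins that link integrins to actin, fell from 191 and 190.2 TPM to 95.6 and 96.9 TPM (-0.98).

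Genes of endosomal traffic used by integrins, of which 13 were tested, had 8 that rose, 3 that fell and 2 that did not pass (median log2 fold change 0.24), beside 28.4% of all tested genes that rose and 32.4% that fell. Ehd1, a recycling factor, rose from 82.8 and 83.0 TPM to 143 TPM in both treated libraries (0.78). The endocytic adaptor gene Numb (0.46, but 0.21 over curated transcripts alone) and Rab21 (0.41), a GTPase that binds integrin alpha tails, rose too. Rab25, a recycling GTPase mainly of epithelial cells, fell from 2.79 and 3.10 TPM to 0.551 and 0.659 TPM (-1.30).

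Although Itgb8 was near 0, genes of latent TGF-beta and of the response to it were expressed. The 13 tested held 8 that rose, 1 that fell and 4 without a call (median log2 fold change 0.30), beside 28.4% and 32.4% of all tested genes. Tgfb1 was the gene that fell, from 338 and 332 TPM to 286 and 284 TPM (-0.23, adjusted p = 0.000587 in limma). Smad3, which carries the TGF-beta signal to the nucleus, rose from 12.8 and 12.1 TPM to 34.7 and 33.3 TPM (1.39), and Skil, which restrains that signal, from 15.2 and 14.5 TPM to 27.1 and 25.4 TPM (0.78). Tgfb3 (0.61) and the receptor gene Tgfbr2 (0.55) also rose.

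**Figure D5:**
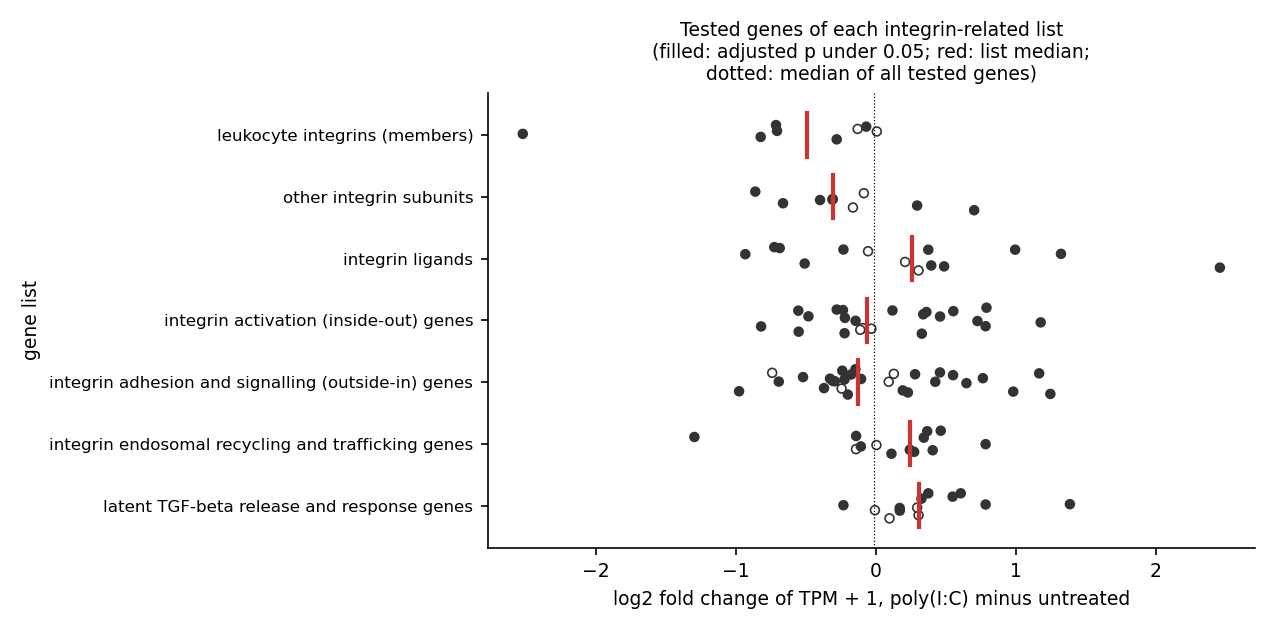
Log2 fold change of TPM + 1 (x axis) of the tested genes of 7 lists (y axis); points are genes, filled where the adjusted p was under 0.05, with the median of the list in red and that of all tested genes dotted. The leukocyte integrins have a median of -0.49 and no filled point above 0, while each of the other lists has filled points on both sides.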

How the data were processed

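Polyadenylated RNA was sequenced from stranded libraries, per the labels' protocols. The submitters' processing notes list, without roles, GRCm38 as the build and kallisto 0.42.4 and bcl2fastq 2.20.0.422 as tools. Although its name says FPKM, the deposited table has columns that each sum to 1000000, and its values were therefore read as transcript-level TPM. TPM keeps no depth, so counting error cannot be stated. Its header holds 5 names for 6 value columns; the 4 columns whose group is settled under either reading were used, and the remaining 2 per-sample columns were left out. Transcripts were matched by accession without version to RefSeq symbols (86722 of 107384, or 80.8%, holding 91.8% to 92.2% of a library's TPM), and their TPM were summed per symbol.

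Genes averaging 0.5 TPM or more were compared on log2(TPM + 1), a scale that understates changes of low genes, with limma 3.58.1 in R 4.3.3 (trend, robust moderation, 2 residual degrees of freedom). Benjamini-Hochberg adjustment covered all 12520 tested genes, and a gene rose or fell at an adjusted p under 0.05. Plots were drawn with matplotlib 3.10.9 in Python 3.11.15. Named genes are all 10 members, up to 4 passing genes of each pathway list with the largest change and a mean of at least 1 TPM, the genes nearest to 2 members, and 7 further genes (Itgae, Itga5, Icam1, Vcam1, Tln1, Fermt3 and Tgfb1). Itgb5, Itgb6, Itgad, Fn1, Madcam1, Cdh1, Cerkl, Rap1gap, Src and single marker genes were chosen after values were seen, unless the rule also names them. Results for a few genes that these rules name are not reported here. The members and lists were chosen with earlier results of these data known. The alternatives were other pseudocounts (0.1 and 5), other filters, rescaled libraries, curated transcripts alone, limma without trend and robust moderation, and each library left out.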

Additional observations from a re-analysis of the deposited data

How the results depend on the processing

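Under 11 alternative settings Itgb7, Itgax, Itgal, Itgam and Itgb2 fell in each, with log2 fold changes of -2.60 to -2.32, -0.75 to -0.67, -0.72 to -0.67, -0.91 to -0.57 and -0.42 to -0.25. Of the members, 5 or 6 fell and 0 rose under every setting, the sixth being Itgb1 or, without NT02, Itga4. Itgav changed sign without NT02 (-0.021) and without PolyIC01 (-0.032), with a range of -0.032 to 0.045 over the libraries left out, and Itgae without NT01 (0.10), with a range of -0.27 to 0.10; neither passed under any setting. Rescaling the libraries by their median ratio moved the median of all tested genes from -0.02 to 0.00. With 1 library left out, the remaining library of its group is assumed to vary like the others. No paired analysis was possible because the header does not settle the replicate numbers of the columns. Depth is unknown, so the levels of Itgb3 and Itgb8 cannot be given a detection limit.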

Other observations

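Genes near the integrin genes were looked at by position (within 100000 bases, RefSeq annotation of GRCm38.p6). Of 13 neighbours of Itgb7, 9 were tested, 5 fell, 1 rose and 3 did not pass, where 32.4% of all tested genes fell and 28.4% rose. The closest, the zinc finger gene Zfp740, ends 384 bases from Itgb7 and fell from 30.5 and 33.1 TPM to 22.4 and 21.1 TPM (log2 fold change -0.53, adjusted p = 0.000835 in limma). Espl1, which encodes separase, the protease that parts sister chromatids, fell from 30.7 and 30.1 TPM to 12.8 and 12.4 TPM (-1.21). Soat2, which encodes an enzyme that esterifies cholesterol, rose from 19.5 and 15.6 TPM to 28.3 and 28.1 TPM (0.66). Mfsd5 and Spryd3, both within the same distance, did not pass (0.04 and 0.00). The change of Itgb7 was deeper than that of each tested gene beside it. As the 5th deepest fall of the 12520 genes tested, it left that outcome nearly fixed in advance.

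On chromosome 7, the neighbours of Itgam that fell included Itgax itself and Cox6a2, of cytochrome c oxidase (log2 fold change -0.39). Around Itgax, Itgam and Cox6a2 fell while Armc5 (0.32) and 9130023H24Rik (0.45) rose. Of 14 tested neighbours of Itgal 5 fell, 1 rose and 8 did not pass, where 32.4% of all tested genes fell and 28.4% rose. Septin1, 1 of the 5, reached the expression limit only through the untreated libraries (1.09 and 0.974 TPM, against 0.544 and 0.392 TPM treated). Dctpp1, a nucleotide-pool enzyme gene 35472 bases away, fell by 0.73 on the log2 scale, from 215 and 218 TPM to 125 and 135 TPM. These neighbours were chosen by distance and named after their values were seen.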
